A study of Mus musculus with 6 samples.

Results

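The glycolysis and hypoxia response genes are a list of 39 mouse genes: 24 that carry out or control glycolysis and 15 that sense low oxygen or respond to it. They were read from arrays of primary murine embryonic fibroblasts (MEFs), the connective tissue cells that grow out of minced mouse embryos, exposed to hydrogen peroxide (H2O2), a reactive oxygen species. A member was any non-control probe that carried 1 of the 39 names or a newer symbol of the same gene, and the file's Pkm2, Vhlh and Ero1l are given here as Pkm, Vhl and Ero1a. The brightest probe of a gene over the 6 arrays stood for it. On the array 38 of the 39 had a probe of their own name, 66 probes in all, out of 27670 names. All 38 were well above background on each of the 6 arrays and were among the 17185 genes tested, so none passed that filter through 1 group alone. Gapdh had no probe of its name and is described apart.

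The cells fell into 3 groups of 2 arrays: no H2O2 (untreated, 0 h), 1 mM H2O2 for 2 h, and 1 mM H2O2 for 4 h. All were kept in DMEM with 10% FCS, and gave total RNA that was labelled with Cy3 for single-colour Agilent arrays; the labels call the arrays of a time point independent experiments. The labels list no cells kept for 2 h or 4 h without H2O2, so the effects of H2O2 and of handling or elapsed time cannot be told apart. The embryos' strain, genotype and age, and whether cells were pooled, are not given in the sources used here.

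Glycolysis splits glucose into pyruvate in the cytosol and yields ATP without oxygen, and lactate dehydrogenase turns pyruvate into lactate to regenerate NAD. When oxygen is low, prolyl hydroxylases of the Egln family no longer mark the transcription factor subunit HIF-1α for destruction through the von Hippel-Lindau ubiquitin ligase, and HIF then raises transcription of glycolytic enzymes, of pyruvate dehydrogenase kinases, and of genes for vessel growth, mitophagy and collagen folding. The arrays measured transcripts only, whereas HIF-1α is controlled chiefly as a protein.

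Values below are scaled signals: the scanner's background-corrected fluorescence, scaled so that every array has the same 75th percentile. Signals of different probes are not on a common scale and were not compared. Changes are differences of mean log2 signal with their standard error (SE), and a gene rose or fell where limma's Benjamini-Hochberg adjusted p, over all 17185 genes, was under 0.05. Before scaling, the 75th percentile was 826 and 883 on the untreated arrays, 675 and 677 at 2 h, and 674 and 754 at 4 h, and 57.3% to 68.0% of spots were well above background. Scaling sets the zero of every change here: the median change of all genes tested was 0.12 at 2 h, 0.07 at 4 h and -0.08 for 4 h against 2 h, but -0.34, -0.19 and 0.12 when arrays were scaled on their spike-in control spots. The arrays came on 2 slides, each with 1 array of every group, so changes are also given within slide 1 and slide 2. A given time point sat at 1 position on either slide, so position and time cannot be told apart. In RNA from a whole culture, fewer cells of a type and less RNA per cell cannot be told apart either.

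At 2 h, 10 of the 38 members rose (26.3%) and 7 fell (18.4%), against 23.8% and 15.3% of all genes tested. Their median change was 0.20, within slides 0.19 and 0.16, beside 0.12 over all genes. At 4 h, 7 rose and 7 fell (18.4% each), against 24.7% and 18.5% of all genes, with a median of 0.06 beside 0.07. Between the H2O2 groups, at 4 h against 2 h, 4 members rose (10.5%) and 6 fell (15.8%), against 13.4% and 16.5% of all genes. The members' shares thus lay near those of all genes, and the changes below are changes of single genes. Both H2O2 comparisons use the same untreated arrays, so their values are not independent.

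The split between rises and falls moved with the scaling. At 2 h the counts of rises and falls were 4 and 7 after quantile normalization, 2 and 7 after median centring, 0 and 10 without scaling, and 0 and 19 after spike-in scaling. At 4 h the same settings gave 3 and 9, 1 and 10, 2 and 12, and 2 and 14, and for 4 h against 2 h they gave 4 and 6, 3 and 1, 4 and 4, and 6 and 1. With normexp background correction the counts were 1 and 3, 0 and 3, and 2 and 0 in the 3 comparisons, and with normexp and quantile normalization 4 and 8, 4 and 9, and 5 and 6. With the slide as a replicate block they were 17 and 8, 13 and 10, and 4 and 7. Leaving out single arrays gave 2 to 9 rises and 3 to 8 falls at 2 h, 1 to 5 and 3 to 7 at 4 h, and 3 rises and 0 to 4 falls for 4 h against 2 h. The lowest counts came without 2 h array 1 (2 rises at 2 h) or without untreated array 2 (1 rise at 4 h). Falls were fewest without untreated array 1 or 2 h array 2 (3 at 2 h), without either untreated array (3 at 4 h), and without either 2 h array or 4 h array 2 (0 for 4 h against 2 h).

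**Figure D1:**
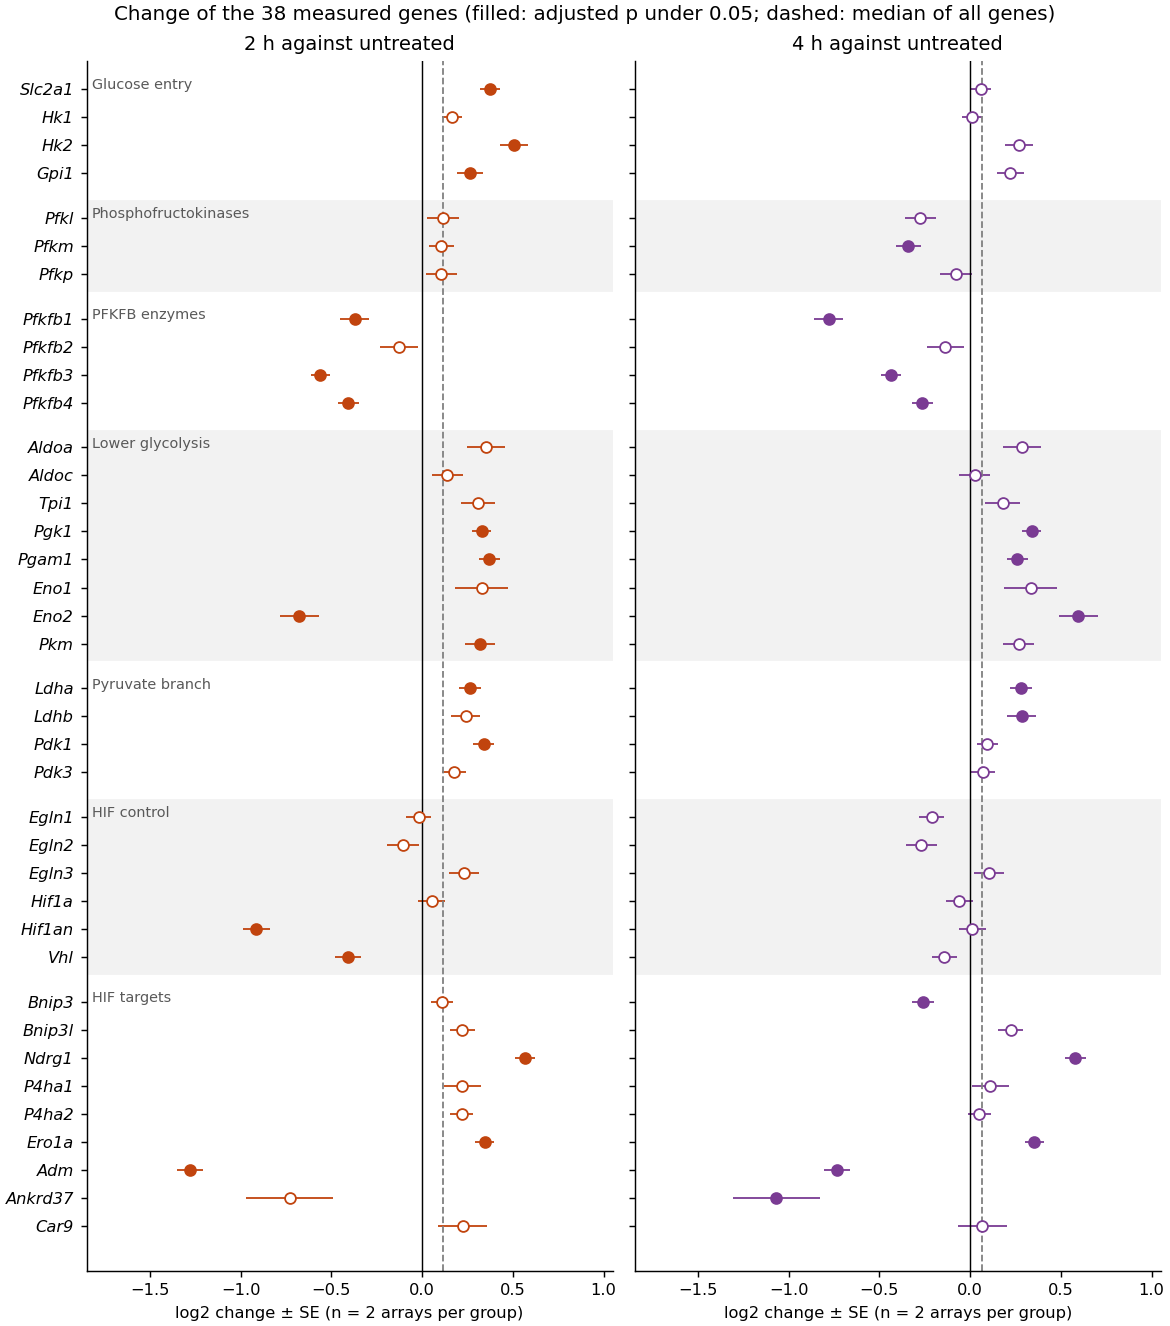
Log2 change ± SE of the 38 members, ordered by role, at 2 h and at 4 h against untreated. Filled points passed the adjusted p of 0.05, and the dashed line is the median of all genes tested (0.12 and 0.07). Adm reached -1.28 at 2 h and Eno2 stood on opposite sides of 0 at 2 h and 4 h; of the 17 changes called at 2 h, 9 kept their sign under all 6 other scalings.

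Promoters of 6 members are printed because their genes moved in opposite ways: Ldha, Hk2 and Pgk1 rose at 2 h, and Pfkfb3, Adm and Hif1an fell. Each is the 250 bases before a start of the gene in RefSeq, build GRCm38.p6; Ldha and Pfkfb3 have a second start there and both are printed. They are written 5′ to 3′ on the gene's own strand. Capitals mark ACGTG or its reverse complement CACGT, a core that HIF binds. Where both overlap the letters read CACGTG, the E-box bound by Myc, USF and other helix-loop-helix factors.
Ldha, chr7:46845554-46845803, plus strand: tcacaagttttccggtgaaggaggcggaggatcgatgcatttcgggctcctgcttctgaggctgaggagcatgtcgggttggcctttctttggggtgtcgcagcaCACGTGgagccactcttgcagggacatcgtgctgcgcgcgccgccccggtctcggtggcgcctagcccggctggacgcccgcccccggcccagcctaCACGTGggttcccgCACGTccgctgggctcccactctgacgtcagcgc
Ldha, chr7:46846832-46847081, plus strand: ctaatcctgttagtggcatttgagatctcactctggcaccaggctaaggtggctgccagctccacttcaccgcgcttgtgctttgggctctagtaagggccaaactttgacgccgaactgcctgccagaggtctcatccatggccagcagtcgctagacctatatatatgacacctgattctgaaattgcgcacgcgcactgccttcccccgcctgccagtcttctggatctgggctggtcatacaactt
Hk2, chr6:82774455-82774704, minus strand: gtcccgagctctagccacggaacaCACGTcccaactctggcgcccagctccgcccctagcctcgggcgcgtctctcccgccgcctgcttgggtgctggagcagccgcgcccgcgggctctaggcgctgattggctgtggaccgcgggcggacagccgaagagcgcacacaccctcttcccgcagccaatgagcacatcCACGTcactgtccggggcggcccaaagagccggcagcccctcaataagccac
Pgk1, chrX:106186850-106187099, plus strand: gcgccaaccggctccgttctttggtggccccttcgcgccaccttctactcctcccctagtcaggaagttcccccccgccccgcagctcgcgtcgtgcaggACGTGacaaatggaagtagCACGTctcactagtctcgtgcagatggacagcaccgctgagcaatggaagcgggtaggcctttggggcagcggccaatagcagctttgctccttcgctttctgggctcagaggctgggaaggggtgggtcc
Pfkfb3, chr2:11553930-11554179, minus strand: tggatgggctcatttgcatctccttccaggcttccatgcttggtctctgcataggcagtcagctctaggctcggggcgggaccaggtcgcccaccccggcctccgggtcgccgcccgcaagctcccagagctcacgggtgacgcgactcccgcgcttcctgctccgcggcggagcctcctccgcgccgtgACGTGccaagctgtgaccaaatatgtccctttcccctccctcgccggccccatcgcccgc
Pfkfb3, chr2:11502091-11502340, minus strand: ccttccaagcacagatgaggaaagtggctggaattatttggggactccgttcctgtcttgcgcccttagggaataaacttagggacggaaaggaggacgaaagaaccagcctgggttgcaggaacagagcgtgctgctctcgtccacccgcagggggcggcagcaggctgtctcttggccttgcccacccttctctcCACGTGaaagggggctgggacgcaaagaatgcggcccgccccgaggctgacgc
Adm, chr7:110627407-110627656, plus strand: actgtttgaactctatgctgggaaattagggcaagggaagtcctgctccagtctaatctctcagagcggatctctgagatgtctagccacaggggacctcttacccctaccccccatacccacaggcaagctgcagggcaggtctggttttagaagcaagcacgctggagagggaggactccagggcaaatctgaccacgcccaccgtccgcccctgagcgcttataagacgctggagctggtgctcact
Hif1an, chr19:44562604-44562853, plus strand: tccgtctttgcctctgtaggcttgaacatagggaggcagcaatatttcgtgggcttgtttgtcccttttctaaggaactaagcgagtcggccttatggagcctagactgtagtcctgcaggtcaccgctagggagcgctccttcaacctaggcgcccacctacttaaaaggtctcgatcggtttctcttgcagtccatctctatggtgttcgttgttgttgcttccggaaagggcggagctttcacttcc
The first Ldha window held 5 matches, of which 2 E-boxes count once on each strand and 1 match stands alone, and the second held none. Hk2 and Pgk1 held 2 matches each. The first Pfkfb3 window held 1 match and the second 1 E-box, which counts as 2. Adm and Hif1an held none. These genes are picked examples. Gpi1 and Pdk1, which also rose at 2 h and are not printed, held no match either. The 2 h changes of Ldha and Pgk1 were below 0 under some scalings.

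For the counts, the window was the whole RefSeq entry, from 250 bases before to 50 bases after the start, and both strands were searched. ACGTG stood in 28 of the members' 56 windows, which cover 37 genes, and in 19.6% of all 32851 windows. By gene, at any of its starts, it was found in 24 of the 37, of which 14 of 24 glycolytic genes and 10 of 13 hypoxia genes, against 21.8% of all 27025 genes. Of the genes that rose at 2 h, 7 of 9 with a promoter entry held it, and of those that fell at 2 h 1 of 7 did (7 of 12 and 2 of 11 windows). At 4 h these counts were 4 of 6 and 4 of 7. CACGTG, every copy of which is also an ACGTG match, stood in 12.5% of the members' windows and 7.15% of all. GCGTG stood in 57.1% of the members' windows and 32.4% of all. By gene, 5 of 9 that rose and 4 of 7 that fell at 2 h held GCGTG, and 4 of 6 and 7 of 7 at 4 h. TGANNNNGC, the core of the antioxidant response element that Nrf2 binds, stood in 39.3% of the members' windows and 41.3% of all. No link between a motif and the direction of change was tested. Many genes of this list are known HIF targets, so a high share of HIF core matches was built into it, and a match is only a string of letters. Ndrg1 and Bnip3l had no entry.

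The 4 genes at the entry of glycolysis are Slc2a1, the basal glucose transporter GLUT1, the hexokinases Hk1 and Hk2, which trap glucose as glucose 6-phosphate, and Gpi1, the isomerase that follows. At 2 h 3 of the 4 rose (median 0.32), against 23.8% of all genes tested, and at 4 h none passed the test (median 0.14). Scaled signals of Slc2a1 were 8677 and 9016 in untreated cells, 11610 and 11299 at 2 h, and 9146 and 9290 at 4 h. Both 2 h arrays thus stood above all others. Slc2a1 rose by 0.37 ± 0.06 at 2 h (adjusted p = 0.0086; 0.42 and 0.33 within slides), but its change was -0.08 after spike-in scaling. At 4 h the difference from untreated cells was 0.06 (adjusted p = 0.434), and 4 h against 2 h it fell by 0.31 (adjusted p = 0.0174), with a negative sign under all 6 other scalings.

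Hk2, the hexokinase that HIF and insulin raise, showed the larger rise of this step. Scaled signals of Hk2 were 4089 and 4345 in untreated cells, 5716 and 6273 at 2 h, and 4915 and 5249 at 4 h, and the 3 groups did not overlap. It rose by 0.51 ± 0.08 at 2 h (adjusted p = 0.0099; 0.48 and 0.53 within slides), a value that stayed above 0 under the 6 other scalings (0.05 to 0.51). Its 4 h change of 0.27 missed the threshold (adjusted p = 0.0502) and passed it with the slide as a replicate block (0.0126), as did its -0.24 at 4 h against 2 h (adjusted p = 0.0882; 0.0221 with the block). Hk1, the housekeeping form, had 6622 and 6733 in untreated cells, 7653 and 7308 at 2 h, and 6749 and 6704 at 4 h, and did not pass the test in any comparison (2 h change 0.16, adjusted p = 0.0765). Gpi1 had 36760 and 37371 in untreated cells, 46889 and 42265 at 2 h, and 44043 and 42393 at 4 h. Its rise of 0.26 ± 0.07 at 2 h was close to the threshold (adjusted p = 0.0458; 0.35 and 0.18 within slides), and the sign turned under 4 of 6 scalings (-0.04 after quantile normalization, -0.06 after normexp and quantile, -0.07 without scaling, -0.19 after spike-in scaling). At 4 h Gpi1 had a change of 0.22 (adjusted p = 0.0676), which passed with the replicate block (0.0498).

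These entry calls were sensitive to single arrays. The 2 h rise of Slc2a1 missed the threshold without untreated array 1 (adjusted p = 0.0573) or 2 h array 1 (0.0551), and that of Hk2 without untreated array 1 (0.0548) or 2 h array 2 (0.0526). Gpi1 missed it whichever array was left out (0.0609 to 0.166), and the later fall of Slc2a1 without any of the 4 H2O2 arrays (0.0664 to 0.0948).

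Phosphofructokinase is the committed step of glycolysis, and its 3 subunit genes are named for liver (Pfkl), muscle (Pfkm) and platelet (Pfkp). None of the 3 passed the test at 2 h (changes 0.11 to 0.12, beside a median of 0.12 over all genes). At 4 h Pfkm fell, and against 2 h both Pfkm and Pfkl fell. Scaled signals of Pfkm were 2419 and 2385 in untreated cells, 2651 and 2518 at 2 h, and 1977 and 1819 at 4 h, so both 4 h arrays lay below the other 4. Pfkm fell by 0.34 ± 0.07 at 4 h against untreated cells (adjusted p = 0.0180; -0.29 and -0.39 within slides) and by 0.45 against 2 h (adjusted p = 0.0122), with a negative sign under all 6 other scalings. Pfkl had 2792 and 2560 in untreated cells, 2975 and 2825 at 2 h, and 2341 and 2089 at 4 h, again lowest at 4 h without overlap. It fell by 0.39 ± 0.09 at 4 h against 2 h (adjusted p = 0.0327; -0.35 and -0.44 within slides), and its difference of -0.27 from untreated cells missed the threshold (adjusted p = 0.0631; 0.0157 with the replicate block). The fall of Pfkm at 4 h was lost without either untreated array (0.0868 and 0.0779) or 4 h array 2 (0.0663), and against 2 h without either 2 h array (0.0710 and 0.0518) or 4 h array 2 (0.0514). The fall of Pfkl passed in 1 of 6 such fits, without 4 h array 1. Pfkp's brightest probe had changes of 0.11 at 2 h and -0.08 at 4 h, and its other probes went other ways, as described with the probes.

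The Pfkfb genes encode the bifunctional enzymes that make and break down fructose 2,6-bisphosphate, the strongest activator of phosphofructokinase, and Pfkfb3, whose kinase activity prevails, and Pfkfb4 are HIF targets. As single genes, 3 of 4 fell at 2 h and 3 of 4 at 4 h. Of all genes tested, 15.3% and 18.5% fell at these times. The medians of the 4 genes were -0.39 and -0.35. Scaled signals of Pfkfb3 were 1613 and 1607 in untreated cells, 1078 and 1105 at 2 h, and 1213 and 1169 at 4 h. All 4 H2O2 arrays lay below both untreated arrays. Pfkfb3 fell by 0.56 ± 0.05 at 2 h (adjusted p = 0.0025; -0.58 and -0.54 within slides) and by 0.44 at 4 h (adjusted p = 0.0049; -0.41 and -0.46). Both calls passed under the 6 other scalings (-1.01 to -0.53 at 2 h, -0.70 to -0.39 at 4 h) and without any single array.

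Pfkfb4 had 1979 and 1937 in untreated cells, 1491 and 1460 at 2 h, and 1676 and 1586 at 4 h, the same order of the groups as Pfkfb3. It fell by 0.41 ± 0.06 at 2 h (adjusted p = 0.0077; -0.41 within each slide) and by 0.26 at 4 h (adjusted p = 0.0231; -0.24 and -0.29), with a negative sign under all scalings tried. Pfkfb1, a form best known from liver and muscle, went further at 4 h than at 2 h. Scaled signals of Pfkfb1 were 758 and 719 in untreated cells, 582 and 559 at 2 h, and 455 and 406 at 4 h. The 3 groups did not overlap and stepped down with time. Pfkfb1 fell by 0.37 ± 0.08 at 2 h (adjusted p = 0.0238), by 0.78 at 4 h (adjusted p = 0.0030; -0.74 and -0.82 within slides), and by 0.41 at 4 h against 2 h (adjusted p = 0.0231). The 4 h value passed under all 6 other scalings (-1.04 to -0.63). Pfkfb2, the heart form, was dim and had changes of -0.13 and -0.14 that did not pass the test.

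Among these falls, that of Pfkfb1 at 4 h also passed without any single array. The fall of Pfkfb1 at 2 h was lost without any of the 4 arrays compared (adjusted p = 0.0770 to 0.111), and that of Pfkfb1 at 4 h against 2 h without either 2 h array (0.111 and 0.0842) or 4 h array 2 (0.0767). The fall of Pfkfb4 was lost at 2 h without untreated array 1 (0.0510) or 2 h array 2 (0.0511), and at 4 h in every such fit but the one without 4 h array 1 (0.0542 to 0.115).

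**Figure D2:**
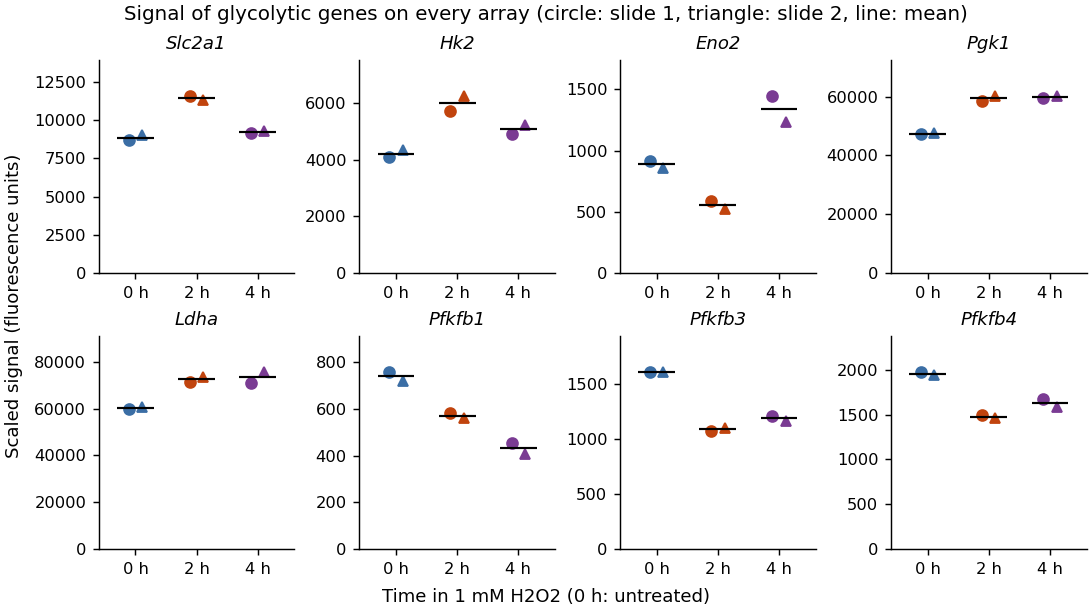
Scaled signal of Slc2a1, Hk2, Eno2, Pgk1, Ldha, Pfkfb1, Pfkfb3 and Pfkfb4 at 0 h (untreated), 2 h and 4 h in 1 mM H2O2. Circles are arrays of slide 1, triangles arrays of slide 2, and short horizontal lines mark group means. Pfkfb3 and Pfkfb4 were highest on the untreated arrays and lowest at 2 h, Pfkfb1 stepped down at each time, and Eno2 was lowest at 2 h and highest at 4 h.

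The lower part of the path from fructose 1,6-bisphosphate to pyruvate comprises aldolase (Aldoa, Aldoc), triose phosphate isomerase (Tpi1), Gapdh, phosphoglycerate kinase (Pgk1), phosphoglycerate mutase (Pgam1), enolase (Eno1, Eno2) and pyruvate kinase (Pkm). Of its 8 genes tested, 3 rose and 1 fell at 2 h (median 0.32), and 3 rose at 4 h (median 0.28). Over all genes tested, 23.8% rose and 15.3% fell at 2 h, and 24.7% rose at 4 h. Scaled signals of Pgk1, which makes the first ATP of the pathway, were 47143 and 47506 in untreated cells, 58616 and 60281 at 2 h, and 59382 and 60358 at 4 h. All 4 H2O2 arrays stood above both untreated arrays, and the H2O2 groups overlapped. Pgk1 rose by 0.33 ± 0.05 at 2 h (adjusted p = 0.0106; 0.31 and 0.34 within slides) and by 0.34 at 4 h (adjusted p = 0.0088; 0.33 and 0.35), but at 2 h its change was -0.01 without scaling and -0.12 after spike-in scaling.

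Pgam1 had 49141 and 47355 in untreated cells, 62842 and 61747 at 2 h, and 59015 and 56473 at 4 h. It rose by 0.37 ± 0.06 at 2 h (adjusted p = 0.0100; 0.35 and 0.38 within slides), a change that was -0.08 after spike-in scaling, and by 0.26 at 4 h (adjusted p = 0.0237), where quantile normalization, no scaling and spike-in scaling left values just under 0. Pkm had 26610 and 25399 in untreated cells, 33534 and 31352 at 2 h, and 33171 and 29483 at 4 h, so its lowest H2O2 array still exceeded both untreated arrays. It rose by 0.32 ± 0.08 at 2 h (adjusted p = 0.0412; 0.33 and 0.30 within slides), but its change was -0.02 without scaling and -0.13 after spike-in scaling. At 4 h its change was 0.27 (adjusted p = 0.0611; 0.0188 with the replicate block). Aldoa, Tpi1 and Eno1 had changes of 0.35, 0.31 and 0.33 at 2 h that missed the threshold (adjusted p = 0.0588, 0.0607 and 0.138). With the replicate block Aldoa and Tpi1 passed it, at 2 h (0.0120 and 0.0127) and at 4 h (0.0165 and 0.0364). Aldoc, the brain form, had changes of 0.14 and 0.02.

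The rises of Pgk1 and Pgam1 rested on few arrays as well. Pgk1 missed the threshold at 2 h without any of the 4 arrays compared (adjusted p = 0.0512 to 0.0655) and at 4 h without either untreated array (0.0567 and 0.0540). Pgam1 missed it at 2 h without untreated array 2 (0.0661) or either 2 h array (0.0599 and 0.0539), and at 4 h in all 6 such fits (0.0559 to 0.123). Pkm was lost at 2 h without any of the 4 arrays compared (0.0979 to 0.167).

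Eno2, the neuronal or gamma enolase, was the member that passed the test in opposite directions at 2 h and at 4 h. Scaled signals of Eno2 were 912 and 859 in untreated cells, 584 and 524 at 2 h, and 1449 and 1235 at 4 h. Both 2 h arrays lay below and both 4 h arrays above the untreated ones. Eno2 fell by 0.68 ± 0.11 at 2 h (adjusted p = 0.0105; -0.64 and -0.71 within slides), rose by 0.60 at 4 h (adjusted p = 0.0135; 0.67 and 0.52), and rose by 1.27 at 4 h against 2 h (adjusted p = 0.0033; 1.31 and 1.24). Signs held under all 6 other scalings, and the 4 h against 2 h value passed in each (1.15 to 1.47) and without any single array. Its other probe gave -0.65, 0.62 and 1.27. The 2 h fall was lost without untreated array 1 (0.0538) or 2 h array 2 (0.0569), and the 4 h rise without untreated array 2 (0.0659).

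Gapdh, the dehydrogenase between triose phosphate and Pgk1, could not be read from a probe of its own name. A dim probe named by Gapdh's gene number (LOC14433) had signals of 79.4 and 64.6 in untreated cells, 30.2 and 32.8 at 2 h, and 83.7 and 79.3 at 4 h. Another 12 bright probes, with mean signals of 1591 to 77174, are described in the file as similar to Gapdh and had changes of 0.27 to 0.35 at 2 h (median 0.30, 3 past the test) and 0.09 to 0.33 at 4 h (median 0.28, 3 past the test). The mouse genome holds many Gapdh pseudogenes, so which transcript these probes read is uncertain, and no value is given for Gapdh itself.

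The fate of pyruvate is set by lactate dehydrogenase (Ldha, Ldhb) and by the pyruvate dehydrogenase kinases (Pdk1, Pdk3), which keep pyruvate out of the mitochondrial cycle. Of these 4, 2 rose at 2 h and 2 at 4 h, against 23.8% and 24.7% of all genes tested. Their medians were 0.25 and 0.19. Scaled signals of Ldha were 59952 and 60739 in untreated cells, 71425 and 73629 at 2 h, and 70851 and 75724 at 4 h. All 4 H2O2 arrays exceeded both untreated arrays. Ldha rose by 0.27 ± 0.06 at 2 h (adjusted p = 0.0287; 0.25 and 0.28 within slides), but its change was at or below 0 under 4 of 6 scalings (-0.00 after quantile normalization, -0.07 after normexp and quantile, -0.07 without scaling, -0.19 after spike-in scaling). At 4 h it rose by 0.28 (adjusted p = 0.0227), with -0.01 after normexp and quantile normalization.

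Ldhb had 5116 and 4943 in untreated cells, 6133 and 5743 at 2 h, and 6453 and 5803 at 4 h. It rose by 0.28 ± 0.08 at 4 h (adjusted p = 0.0440; 0.33 and 0.23 within slides; positive under all scalings tried), and its 2 h change of 0.24 missed the threshold (adjusted p = 0.0725; 0.0246 with the replicate block). Pdk1 had 495 and 512 in untreated cells, 624 and 649 at 2 h, and 546 and 529 at 4 h, and the groups did not overlap. It rose by 0.34 ± 0.06 at 2 h (adjusted p = 0.0127; 0.34 within each slide), a change of -0.11 after spike-in scaling, and fell by 0.24 at 4 h against 2 h (adjusted p = 0.0381). Pdk3 had changes of 0.17 and 0.07 that did not pass. Leaving out any of the 4 arrays compared lost the 2 h rises of Ldha (0.0937 to 0.129) and Pdk1 (0.0524 to 0.0748). The 4 h rise of Ldha passed in 1 of 6 such fits, without 4 h array 1 (0.0440), that of Ldhb in 1, without 4 h array 2 (0.0488), and the later fall of Pdk1 in none (0.0823 to 0.163).

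The genes that control HIF are Hif1a itself, the prolyl hydroxylases Egln1, Egln2 and Egln3, Vhl, the substrate-binding part of the ligase, and Hif1an, the asparagine hydroxylase FIH that blocks HIF's transactivation domain. Of these 6, 2 fell at 2 h, against 15.3% of all genes tested, and none passed the test at 4 h. Hif1an was the second most changed member at 2 h after Adm. Scaled signals of Hif1an were 591 and 616 in untreated cells, 335 and 306 at 2 h, and 626 and 590 at 4 h. Both 2 h arrays lay far below the rest, while the 4 h and untreated arrays overlapped. Hif1an fell by 0.91 ± 0.07 at 2 h (adjusted p = 0.0015; -0.82 and -1.01 within slides), had a change of 0.01 at 4 h (adjusted p = 0.925), and rose by 0.92 at 4 h against 2 h (adjusted p = 0.0030). The 2 h and the 4 h against 2 h calls passed under all 6 other scalings (-1.37 to -0.73 and 0.74 to 1.12) and without any single array, but 1 of its 2 other probes did not follow the brightest at 2 h, with 0.24.

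Vhl had 996 and 943 in untreated cells, 748 and 712 at 2 h, and 910 and 847 at 4 h, and the groups did not overlap. It fell by 0.41 ± 0.07 at 2 h (adjusted p = 0.0127; -0.41 and -0.40 within slides; negative under all scalings tried) and rose by 0.27 at 4 h against 2 h (adjusted p = 0.0492). Its 4 h difference of -0.14 (adjusted p = 0.168) passed with the replicate block (0.0470). The 2 h fall was lost without untreated array 1 (0.0696) or either 2 h array (0.0510 and 0.0718), and the later rise in all 6 such fits (0.0847 to 0.194).

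Hif1a transcripts did not pass the test in any comparison. Its scaled signals were 3557 and 3533 in untreated cells, 3538 and 3818 at 2 h, and 3271 and 3541 at 4 h, with overlapping groups and changes of 0.05 (adjusted p = 0.594) and -0.06 (adjusted p = 0.553). Egln1, the main oxygen sensor of most cells, had 1010 and 1039, 1062 and 963, and 877 and 891 at 0 h, 2 h and 4 h. Both 4 h arrays were lowest, with a change of -0.21 that missed the threshold (adjusted p = 0.0676). Another probe gave -0.29 (adjusted p = 0.0161 in a separate limma fit of every tested probe, where the brightest probe had 0.0753). Egln2 had 3697 and 3683, 3689 and 3184, and 3093 and 3031 at the same times, and its 4 h change of -0.27 (adjusted p = 0.0633) passed with the replicate block (0.0485). Egln3, itself a HIF target, was dim, with 155 and 171, 182 and 201, and 176 and 175. Its 2 h change of 0.23 missed the threshold (adjusted p = 0.0908; 0.0471 with the replicate block).

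**Figure D3:**
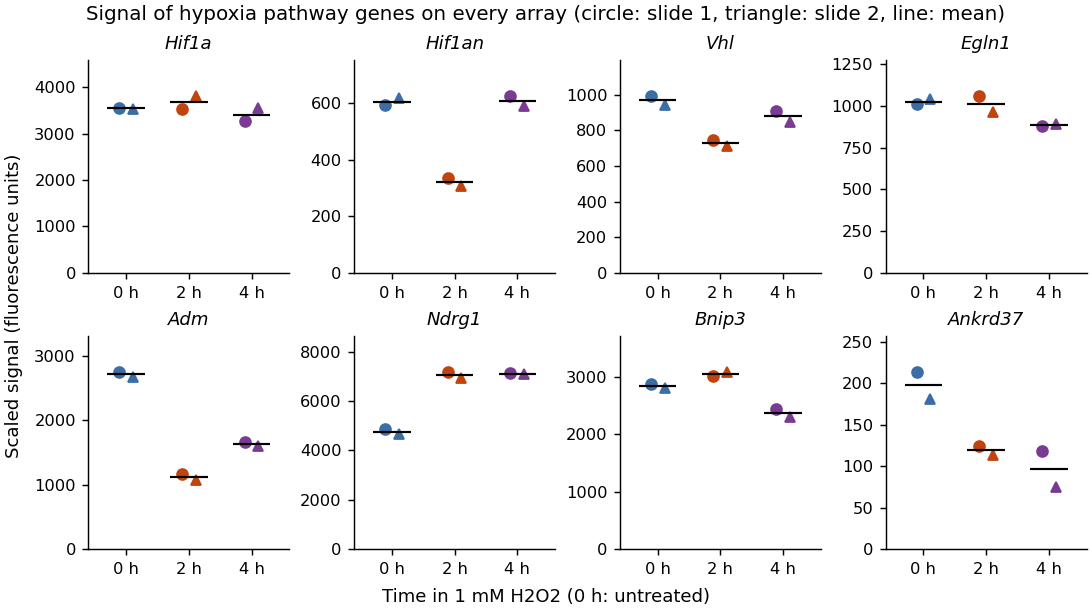
Scaled signal of Hif1a, Hif1an, Vhl, Egln1, Adm, Ndrg1, Bnip3 and Ankrd37 at 0 h (untreated), 2 h and 4 h in 1 mM H2O2. Circles are arrays of slide 1, triangles arrays of slide 2, and short horizontal lines mark group means. Hif1an and Adm were lowest at 2 h, Ndrg1 was high on all 4 H2O2 arrays, and the 3 groups of Hif1a overlapped.

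The other 9 genes are known HIF targets with different roles, and they did not move as a block. At 2 h 2 rose and 1 fell (median 0.22), against 23.8% and 15.3% of all genes tested. At 4 h 2 rose and 3 fell (median 0.07), against 24.7% and 18.5%. Adm encodes adrenomedullin, a secreted peptide that widens vessels. Scaled signals of Adm were 2750 and 2670 in untreated cells, 1167 and 1068 at 2 h, and 1666 and 1595 at 4 h. The 3 groups were far apart, with 2 h lowest. Adm fell by 1.28 ± 0.07 at 2 h (adjusted p = 0.00059; -1.24 and -1.32 within slides) and by 0.73 at 4 h (adjusted p = 0.0025; -0.72 and -0.74), and rose by 0.55 at 4 h against 2 h (adjusted p = 0.0078). Both falls passed under all 6 other scalings (-1.73 to -1.26 and -0.99 to -0.75), and all 3 changes passed without any single array.

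Ndrg1, a stress-inducible protein of the cytoplasm, moved the other way. Scaled signals of Ndrg1 were 4845 and 4668 in untreated cells, 7182 and 6925 at 2 h, and 7133 and 7088 at 4 h. All 4 H2O2 arrays stood above the untreated ones and the H2O2 groups overlapped. It rose by 0.57 ± 0.06 at 2 h (adjusted p = 0.0026; 0.57 within each slide) and by 0.58 at 4 h (adjusted p = 0.0025; 0.56 and 0.60), with a positive sign under all 6 other scalings (0.12 to 0.55 and 0.32 to 0.52), and both calls passed without any single array. Ero1a, the oxidase that forms disulfide bonds in the endoplasmic reticulum, had 2261 and 2224 in untreated cells, 2887 and 2813 at 2 h, and 2860 and 2871 at 4 h. It rose by 0.35 ± 0.05 at 2 h (adjusted p = 0.0091), a change of -0.11 after spike-in scaling, and by 0.35 at 4 h (adjusted p = 0.0078; positive under all scalings tried), while its other probe gave -0.10 at both times. Without single arrays the 2 h rise of Ero1a was lost for untreated array 1 (0.0527), untreated array 2 (0.0634) and 2 h array 1 (0.0576), and the 4 h rise for untreated array 2 (0.0538).

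Bnip3 and Bnip3l encode related outer-membrane receptors for mitophagy, the removal of mitochondria. Scaled signals of Bnip3 were 2867 and 2800 in untreated cells, 3021 and 3088 at 2 h, and 2434 and 2294 at 4 h. Both 4 h arrays were the lowest. Bnip3 fell by 0.26 ± 0.06 at 4 h (adjusted p = 0.0250; -0.24 and -0.29 within slides) and by 0.37 against 2 h (adjusted p = 0.0136), with a negative sign under all 6 other scalings. Bnip3l had changes of 0.22 at both times that missed the threshold (adjusted p = 0.0632 and 0.0581), and passed it with the replicate block (0.0425 and 0.0407). The 4 h fall of Bnip3 was lost in 5 of 6 fits without 1 array (0.0574 to 0.122), all but the one without 4 h array 1, and the fall against 2 h without either 2 h array (0.0675 and 0.0761) or 4 h array 2 (0.0601).

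Ankrd37, a small ankyrin-repeat protein, was dim, with 214 and 182 in untreated cells, 125 and 113 at 2 h, and 118 and 74.9 at 4 h. All 4 H2O2 arrays lay below both untreated arrays. It fell by 1.07 ± 0.24 at 4 h (adjusted p = 0.0236; -0.86 and -1.28 within slides), a change of -0.21 after normexp at the 75th percentile, and its 2 h difference of -0.73 missed the threshold (adjusted p = 0.0695; 0.0293 with the replicate block). The 4 h call was lost without any untreated or 2 h array (0.0504 to 0.0953). The collagen prolyl hydroxylases P4ha1 and P4ha2 had changes of 0.22 at 2 h (adjusted p = 0.153 and 0.0515), and both passed with the replicate block (0.0224 and 0.0279). Car9, the carbonic anhydrase that is among the most HIF-dependent genes known, was dim, with 41.4 and 37.9 in untreated cells, 42.2 and 50.6 at 2 h, and 45.3 and 37.997 at 4 h, and did not pass the test.

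Glycolytic and hypoxia genes may be set side by side as counts. At 2 h 8 of 23 glycolytic genes rose and 4 fell (median 0.24), while 2 of 15 hypoxia genes rose and 3 fell (median 0.11). At 4 h the counts were 5 and 4 of 23 (median 0.10) and 2 and 3 of 15 (median 0.01). Of all genes tested, 23.8% rose and 15.3% fell at 2 h (median 0.12), and 24.7% and 18.5% at 4 h (median 0.07). The difference between the lists was not tested.

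**Figure D4:**
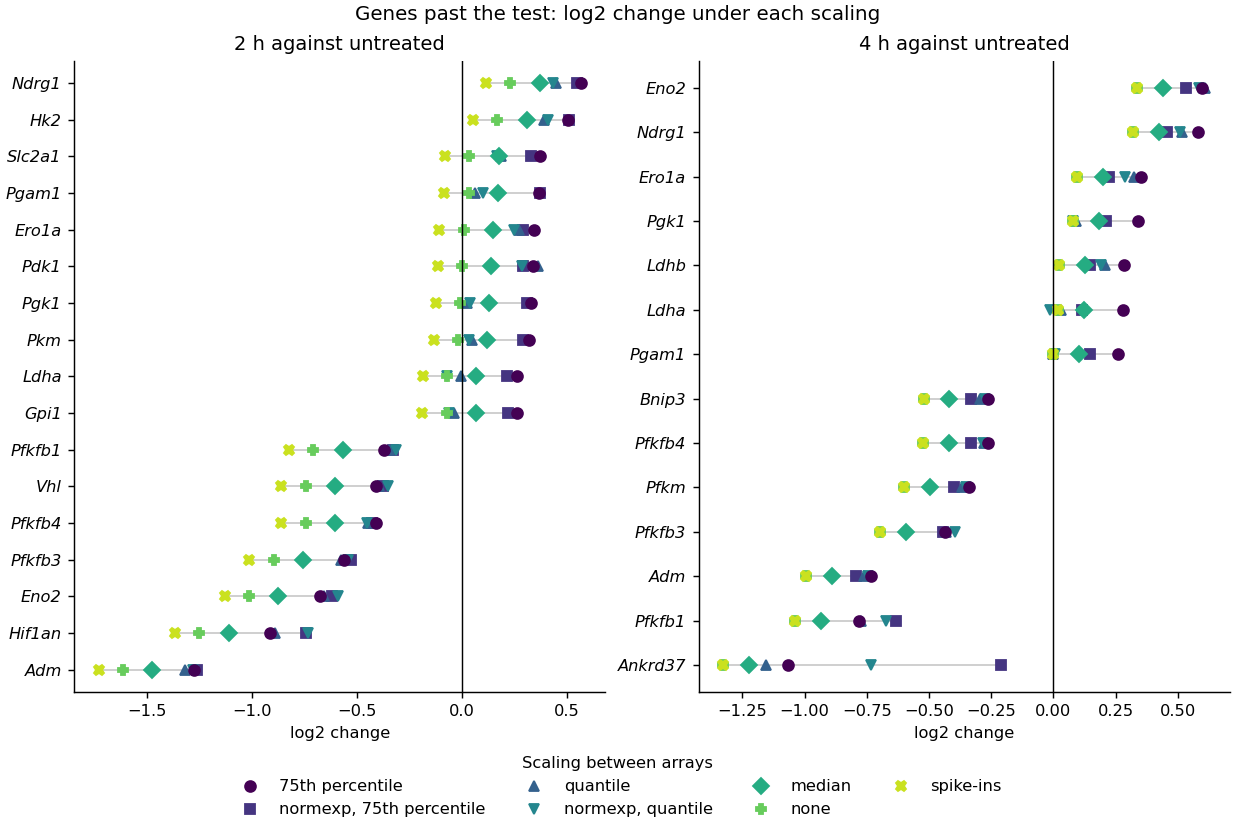
Log2 change of the members called at 2 h and at 4 h against untreated, under the scaling used here and 6 others. The changes of Pfkfb3, Hif1an and Adm at 2 h and of Pfkfb1, Pfkfb3 and Adm at 4 h passed the test under all of them. By contrast, 8 of the 10 rises at 2 h turned below 0 under at least 1 scaling.

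Where a member had several probes, most gave close values and a few did not. The 19 genes with 1 probe could not be checked this way. Other probes gave 0.34 and 0.36 for Pgk1, 0.32 and 0.27 for Ldha, and 0.33 and 0.33 for Pkm at 2 h and 4 h. For Hif1an the other probes gave -0.45 (adjusted p = 0.0147) and 0.24 (adjusted p = 0.395) at 2 h. Adjusted p-values of other probes, and the calls of the probes similar to Gapdh, came from a separate limma fit of every tested probe. They were adjusted over those probes. Pfkp's dimmer probes gave 0.46 and 0.66 at 2 h and 0.79 and 0.15 at 4 h, against 0.11 and -0.08 for the brightest. Pdk1's other probe gave 0.19 at 2 h and -0.14 at 4 h, and Aldoc's, which was above background on 5 arrays, gave 0.99 at 2 h. Pfkfb3 had a further probe above background on 3 of 6 arrays only, with 1.58 ± 1.60 at 2 h.

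**Figure D5:**
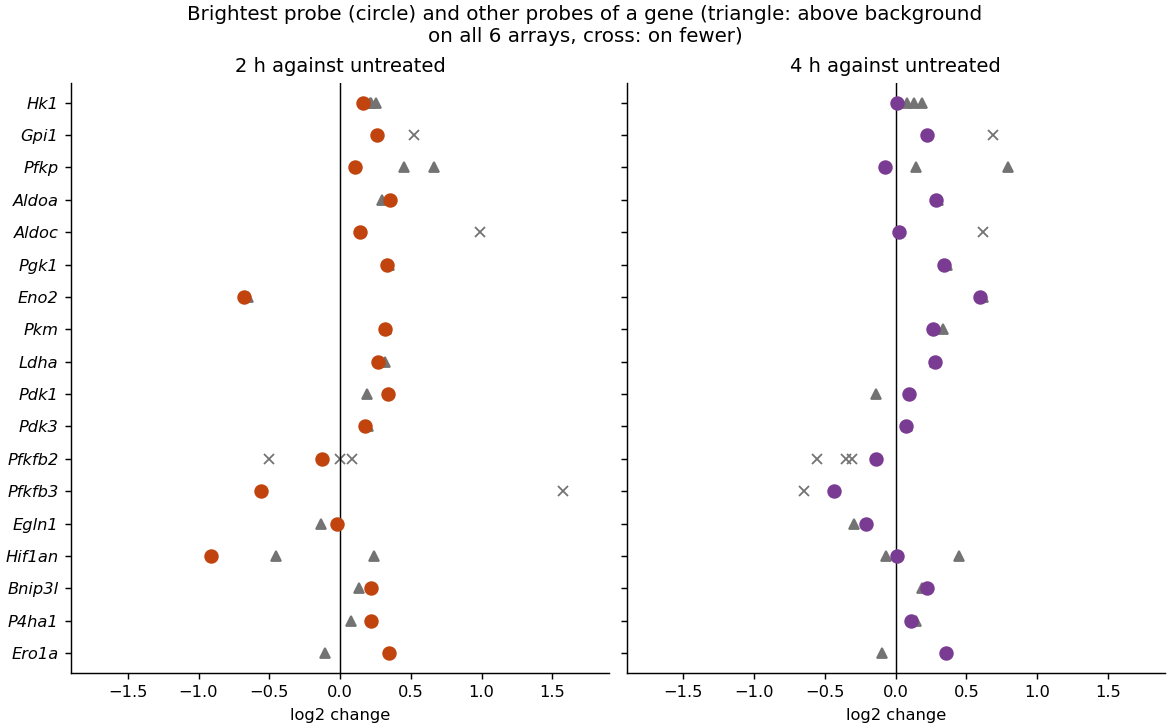
Log2 change at 2 h and 4 h against untreated for the tested probes of the 18 members with more than 1 tested probe; circles are the brightest probe, triangles other probes above background on all 6 arrays, crosses probes above it on fewer. Pgk1, Eno2, Pkm and Ldha show probes close together, and Pfkp, Hif1an, Ero1a, Aldoc and Pfkfb3 show probes apart.

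Around the members, 4 further lists covered the rest of these pathways. Of 24 other genes of glucose and pyruvate handling that were tested, 5 rose (20.8%) and 2 fell (8.33%) at 2 h, against 23.8% and 15.3% of all genes, and 6 rose (25.0%) and 5 fell (20.8%) at 4 h, against 24.7% and 18.5%. The medians were 0.12 and 0.06, beside 0.12 and 0.07 over all genes. Hkdc1, a further hexokinase, entered the test through the H2O2 groups alone, so its counted rises depend on that filter. It was not well above background in untreated cells (4.28 and 3.41), and stood at 200 and 195 at 2 h and at 199 and 210 at 4 h. That is at least 13.2-fold higher at 2 h and at least 13.7-fold higher at 4 h, taking for the untreated side the dimmest signal that still passed as well above background; after normexp at the 75th percentile the log2 changes were 2.25 and 2.47. Pdp1, the phosphatase that reverses Pdk1's action, fell by 1.23 at 2 h (adjusted p = 0.00035) and had -0.14 at 4 h, where its other probe gave -1.15. Pdk4, another kinase of the same enzyme, fell by 0.28 at 2 h and rose by 0.47 at 4 h. At 2 h the monocarboxylate transporter Slc16a7 rose by 0.47, but had 0.14 without scaling and 0.02 after spike-in scaling, and the mean of its probes, 0.30, did not pass (adjusted p = 0.329). The mitochondrial pyruvate carrier Mpc1 rose by 0.30 at 2 h and 0.32 at 4 h, though it had -0.03 without scaling and -0.15 after spike-in scaling at 2 h. At 4 h Tigar, which lowers fructose 2,6-bisphosphate, fell by 1.17, but had 0.00 after normexp at the 75th percentile. The glucose transporter Slc2a4 fell by 0.81 at 4 h, but had -0.35 after normexp at the 75th percentile (adjusted p = 0.145). The lactate exporter Slc16a3 fell by 0.53 at 4 h, and Hk3 rose by 0.57.

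Among 8 pentose phosphate genes tested, 2 rose at both times (25.0%, against 23.8% and 24.7% of all genes) and none fell (medians 0.17 and 0.19). Pgd, the second dehydrogenase that makes NADPH, rose by 0.41 at 2 h and 0.64 at 4 h, with -0.05 at 2 h after spike-in scaling, and its 0.23 at 4 h against 2 h (adjusted p = 0.0757) passed with the replicate block (0.0308). Taldo1, transaldolase, rose by 0.25 and 0.24, and was below 0 under 4 scalings at 2 h (-0.20 to -0.03) and 2 at 4 h. Of 4 gluconeogenesis genes tested, 2 rose at 2 h, against 23.8% of all genes, and none passed at 4 h. G6pc, the liver glucose 6-phosphatase, was well above background at 2 h only. It thus entered the test through the group where it was high, and its counted rise depends on that filter. Compared with untreated cells G6pc was at least 3.69-fold higher at 2 h. After normexp at the 75th percentile its 2 h log2 change was 0.84 (adjusted p = 0.214), and after normexp and quantile normalization 0.52. Its 4 h change of 0.71 (adjusted p = 0.0642) passed with the replicate block (0.0274). Its ubiquitous relative G6pc3 rose by 0.24 at 2 h, with -0.09 without scaling and -0.21 after spike-in scaling.

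Of 38 other hypoxia response genes tested, 8 rose (21.1%) and 5 fell (13.2%) at 2 h, against 23.8% and 15.3% of all genes, and 8 rose (21.1%) and 3 fell (7.89%) at 4 h, against 24.7% and 18.5%. The median was 0.13 at both times. Vegfa, the vessel growth factor, had 3608 and 3567 in untreated cells, 6546 and 6326 at 2 h, and 4048 and 4131 at 4 h. Vegfa rose by 0.84 at 2 h (adjusted p = 0.00083) and by 0.19 at 4 h (adjusted p = 0.0464; -0.07 without scaling and after spike-in scaling), and its other probes gave 1.23 and 1.38 at 2 h and 0.98 and 0.71 at 4 h. Bhlhe40, a HIF-induced repressor, rose by 0.89 at 2 h, and Jmjd6, a hydroxylase of the same enzyme class as Hif1an, rose by 0.55 at 2 h (0.10 after spike-in scaling) and 0.66 at 4 h, with 1 other probe at -0.26 at 2 h. Epas1, which encodes HIF-2α, was near background, with 14.0 and 15.6 at 2 h, where 1 of 2 arrays was well above background, and 36.0 and 24.7 in untreated cells. Its change at 2 h was -1.02 (adjusted p = 0.0199), but -0.07 after normexp at the 75th percentile (adjusted p = 0.891) and -0.38 as the mean of its probes (adjusted p = 0.169). Cited2, a competitor of HIF for its coactivator, fell by 0.83 at 2 h, and its 4 h change of -0.23 (adjusted p = 0.120) passed with the replicate block (0.0320). The histone demethylase Kdm4b fell by 0.75 at 2 h and 0.50 at 4 h, and its 0.26 at 4 h against 2 h (adjusted p = 0.0858) passed with the block (0.0348). At 4 h Car12 rose by 0.58, though the mean of its probes did not pass (adjusted p = 0.401), and its 2 h change of 0.20 (adjusted p = 0.0666) passed with the block (0.0330). Fam162a rose by 0.34 at 2 h, with -0.11 after spike-in scaling, and by 0.41 at 4 h, with 0.15 in that setting. Narf fell by 0.31 at 2 h and by 0.48 at 4 h, but had -0.03 at 4 h after normexp at the 75th percentile (adjusted p = 0.908), and Nfil3 fell by 0.40 at 4 h. Of the 17 changes called at 2 h among the 23 genes named from these lists, those of Hkdc1, Pdp1, Bhlhe40, Vegfa, Cited2 and Kdm4b passed under all 6 other scalings, and of the 16 at 4 h those of Hkdc1, Hk3 and Jmjd6 did.

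Without single arrays, the changes of Mpc1, Taldo1 and Nfil3, that of Pdk4 at 2 h and that of Vegfa at 4 h were lost in all 6 fits, and those of Slc16a3 at 4 h (0.0588 and 0.0719), Pgd at 2 h (0.0595 to 0.0757), G6pc3 at 2 h (0.0956 to 0.125), Epas1 at 2 h (0.0726 and 0.0919), Kdm4b at 4 h (0.0504 to 0.0585), Fam162a at 2 h (0.0644 to 0.120) and 4 h (0.0568 and 0.0740) and Narf at 2 h (0.0637 to 0.112) in some. The arrays concerned were untreated array 1 and 4 h array 2 for Slc16a3, untreated array 1 and both 2 h arrays for Pgd, both 2 h arrays for Epas1, both untreated arrays and 4 h array 2 for Kdm4b, untreated array 2 and 4 h array 1 for Fam162a at 4 h, and all 4 arrays compared for G6pc3, Fam162a at 2 h and Narf.

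All 12 markers of the labelled cell type were above background on at least 1 array of every group. Sums below add signals of different probes, so the brightest probes weigh most, and sums of different lists were not compared. The summed signal of 12 fibroblast markers was 645096 to 675656 in untreated cells, 797058 to 804098 at 2 h and 744116 to 779837 at 4 h; 5 of the 12 rose and 2 fell at 2 h, and 4 rose and 2 fell at 4 h. Markers of other cell types also moved with H2O2. Of all genes tested, 23.8% rose and 15.3% fell at 2 h, and 24.7% and 18.5% at 4 h. The sum of 8 endothelial markers was 352 to 402 in untreated cells, 735 to 815 at 2 h and 713 to 730 at 4 h. Of 6 tested markers, 4 were up at 2 h and 3 at 4 h, while Cdh5 and Tie1 were not above background in any group. Nor was Pecam1 above it in untreated cells or at 4 h, Robo4 in untreated cells, or Cldn5 at 4 h. For 8 macrophage markers the sums were 14034 to 15148, 16610 to 16717 and 15958 to 16965 at 0 h, 2 h and 4 h, and 2 rose at 2 h and 3 at 4 h. For 6 epithelial markers they were 2192 to 2436, 2797 to 3088 and 2698 to 3064, with 3 of 4 tested up at both times. Epcam and Cldn4 were not above background, nor was Cdh1 in untreated cells. For 5 erythroid markers the sums were 140.2 to 157.5, 259.8 to 299.5 and 165.0 to 190.4, with 3 up at 2 h and 1 at 4 h. Alas2 was not above background in untreated cells or at 4 h, nor was Hbb-y at 4 h. Neural markers summed to 7193 to 9680, 8512 to 11781 and 7683 to 8740, with 1 of 4 tested up at each time and 1 down at 4 h. Snap25, Gfap and Elavl3 were not above background in untreated cells, nor was Gfap at 4 h. Muscle markers summed to 4326 to 5822, 5966 to 7779 and 5458 to 6291, with 3 of 5 tested up at both times. Myod1 was not above background, nor was Ckm in untreated cells or at 4 h. Markers not above background in untreated cells could enter the test only through an H2O2 group. The filter thus favoured rises in these counts of tested markers. The part of other cell types in the members' changes was not tested.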

How the data were processed

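Per the file headers, the authors scanned each array once and extracted spot intensity with Feature Extraction 9.5.3.1 under protocol GE1-v5_95_Feb07, which subtracts background and detrends within the array. The authors' deposited value matrix holds the same linear intensity within 0.0005. Here log2 of that signal was centred on the array's own 75th percentile, computed from 43379 non-control spots. Outlier spots (99 to 149 per array) were left out, and no spot was saturated. Repeated spots were averaged, 41174 probes were named through RefSeq gene names where an accession or symbol matched, and the brightest probe stood for a gene. Printed signals were scaled to a common 75th percentile of 744.

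Tested genes had to be well above background on both arrays of some group. A gene dim in untreated cells could thus enter the test through the group where it was high. The test was limma 3.58.1 in R 4.3.3, in 1 model of 3 groups, with 3 residual and 1.64 prior degrees of freedom. P-values were adjusted over 17185 genes with the Benjamini-Hochberg method, and the scripts were tested on simulated data. P-values weigh each difference against the spread between arrays of a group, moderated across genes, and the small number of arrays limits precision. Files were read with data.table (version 1.17.8) in R, and tables and figures were made in Python 3.11.15 with pandas 2.3.3 and matplotlib 3.10.9.

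Replicate number, slide and scan coincide, and same-numbered arrays deviated together (correlations of 0.24, 0.20 and 0.24), so the number pairs the arrays by slide. The main fit has no block, and the fit with slide as a replicate block is given where it changed a call. Left-out-array fits leave 1 array in a group, which is assumed to vary like the others.

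The members, lists and markers were chosen with earlier results of these data known. One planned marker gene is not reported here and was left out of its list. Named members were those past the test in any comparison plus a preset group, and from each other list up to 3 genes per direction and time. The antioxidant motif was searched as TGANNNNGC; the planned form had 1 letter more, and this change was made after seeing the data. Probe positions have no stated build and are not used here.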

Additional observations from a re-analysis of the deposited data

Results flagged for a closer look

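For 10 members the change at 4 h differed from the change at 2 h by a test of the difference itself. That test is the contrast of the 4 h arrays with the 2 h arrays (limma, adjusted p under 0.05). Of the 38 members 4 rose and 6 fell in it, against 13.4% and 16.5% of all genes tested. The members' shares thus lay near those of all genes. Several of these calls were lost without single arrays, as given with each gene above. The values, 4 h minus 2 h on the log2 scale, were -0.31 for Slc2a1, -0.39 for Pfkl, -0.45 for Pfkm, -0.41 for Pfkfb1, -0.24 for Pdk1 and -0.37 for Bnip3, all lower at 4 h. They were 1.27 for Eno2, 0.92 for Hif1an, 0.55 for Adm and 0.27 for Vhl, all higher at 4 h. Slc2a1 and Pdk1 had risen at 2 h, Pfkfb1 had fallen further by 4 h, and Hif1an, Adm and Vhl stood nearer to the untreated arrays at 4 h than at 2 h. No group had enough arrays for a search for single outlying arrays.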

How the results depend on the processing

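All results rest on 2 arrays a group, and the cause of each shift below was not tested. Every median and sign moves with the zero set by scaling, and dim probes (Car9, Egln3, Ankrd37, Pfkfb2) carry the least signal over background. The deposited value table gave the same calls as the scanner files. Members that rose and fell were, at 2 h, 10 and 7 in the main setting, 4 and 7 after quantile normalization, 2 and 7 after median centring, 0 and 10 without scaling, 0 and 19 after spike-in scaling, 1 and 3 with normexp background correction, 4 and 8 with that and quantile normalization, 5 and 5 without a filter on dim probes, 13 and 7 over genes above background on all arrays, 11 and 6 when probes were averaged by gene, and 17 and 8 with the slide as a replicate block. At 4 h these were 7 and 7, then 3 and 9, 1 and 10, 2 and 12, 2 and 14, 0 and 3, 4 and 9, 4 and 3, 10 and 9, 6 and 7, and 13 and 10. For 4 h against 2 h they were 4 and 6, then 4 and 6, 3 and 1, 4 and 4, 6 and 1, 2 and 0, 5 and 6, 3 and 0, 4 and 6, 3 and 6, and 4 and 7. Pairing by slide kept all calls and added 8, 9 and 1. Without single replicates, rises and falls ranged from 2 to 9 and 3 to 8 at 2 h, from 1 to 5 and 3 to 7 at 4 h, and stood at 3 and 0 to 4 for 4 h against 2 h. Of all genes tested, spike-in scaling called 1457 up and 9219 down at 2 h, and 1995 up and 6145 down at 4 h.

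Among the 61 genes named, signs turned at 2 h for 6 after quantile normalization, 11 after median centring, 27 without scaling, 34 after spike-in scaling, 0 with normexp and 7 with normexp and quantile normalization, counting changes of any size. At 4 h these were 10, 13, 19, 19, 8 and 10, and for 4 h against 2 h 1, 2, 5, 18, 17 and 2. The genes below are those whose change passed the test in the main setting or in the alternative. At 2 h, spike-in scaling turned Slc2a1 (-0.0801), Hk1 (-0.29), Gpi1 (-0.19), Pfkl (-0.34), Pfkm (-0.35), Pfkp (-0.35), Aldoc (-0.31), Pgk1 (-0.12), Pgam1 (-0.084), Pkm (-0.13), Ldha (-0.19), Pdk1 (-0.11), Pdk3 (-0.28), Hif1a (-0.40), Bnip3 (-0.34), Ero1a (-0.11), Mpc1 (-0.15), Hk3 (-0.26), Slc16a3 (-0.35), Pgd (-0.047), Taldo1 (-0.20), G6pc3 (-0.21), Car12 (-0.25), Fam162a (-0.11) and Nfil3 (-0.32). No scaling turned Gpi1 (-0.073), Pgk1 (-0.0082), Pkm (-0.018), Ldha (-0.072), Mpc1 (-0.035), Taldo1 (-0.086) and G6pc3 (-0.095). Quantile normalization turned Gpi1 (-0.038), Ldha (-0.0033) and Taldo1 (-0.025), and with normexp it turned Gpi1 (-0.061), Ldha (-0.0701) and Taldo1 (-0.043). The mean of all probes turned Pfkfb3 (0.045), and other probes turned Pfkfb3 (1.58), Hif1an (0.24), Ero1a (-0.10) and Jmjd6 (-0.26). At 4 h signs turned for Hk1 (-0.25) and G6pc3 (-0.24) after spike-in scaling, for Pgam1 after quantile normalization (-0.00065), without scaling (-0.00076) and after spike-in scaling (-0.0011), for Taldo1 without scaling and after spike-in scaling (-0.020 each), and for Vegfa in the same settings (-0.071 each). They also turned for Ldha after normexp and quantile normalization (-0.013), for Tigar after normexp with the 75th percentile (0.0022), and on other probes of Pfkp (0.79) and Ero1a (-0.10). For 4 h against 2 h they turned for Slc16a7 with the mean of probes (0.30), Pdp1 on its other probe (-0.049), and Tigar (0.12) and G6pc (0.10) after normexp with the 75th percentile.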
